A study of Glycine max with 8 samples.

Results

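The 40 genes described here are the named soybean genes whose transcripts stood highest in young beans, at bean lengths of 2 mm and 5 mm, relative to both the pod stage before them and the fully grown bean after them. They were chosen from the expression values themselves. For each gene a score was formed, the lower of the mean levels at 2 mm and 5 mm minus the higher of the mean levels at pod elongation and in fully grown beans, on the scale log2(scaled signal + 16). Genes were ranked by it, and the top 40 of 719 ranked genes were taken. The 719 are the 953 tested genes that carry a symbol other than a locus number, less 234 left out by symbol. Those 234 are the WRKY, bZIP, MYB, glutathione S-transferase, cytochrome P450 and SWEET symbols, the phenylpropanoid and flavonoid enzymes DFR, ANS, ANR and 4CL, and SCB1, LEC1-A, MFT, IFR1 and N-26.

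Seeds of Glycine max cultivar Tamahomare were collected in early development, and RNA was hybridised to 8 Affymetrix soybean arrays, 2 for each of 4 stages, to follow transitional changes in expression. The pod elongation group was made from pods at the start of elongation, the bean 2 mm group from pods and seeds together, the bean 5 mm group from seeds, and the fully grown group from green seeds. No treatment or mutant is named, and the numbers of plants or seeds pooled were not found in the labels. Stage, tissue and, for the bean 5 mm and fully grown samples only, a note naming the signal program MAS5 change together and cannot be told apart.

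In a legume seed, a maternal seed coat, an endosperm that is consumed early and an embryo grow inside the pod, first by cell division and then by expansion and reserve filling. Gibberellins and auxin act on this growth. GASA genes encode small cysteine-rich secreted peptides, many of which respond to gibberellin. DELLA proteins hold gibberellin responses back, and AUX1/LAX carriers bring auxin into cells. MADS-box proteins regulate flower organs, ovules and seeds, while expansins, proline-rich wall proteins and aquaporins are associated with wall loosening, wall structure and water uptake.

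The deposited array medians lay between 24.1 and 138, so every array was scaled to an equal median, and all levels below are scaled signals, which can be compared between arrays for a probe set but not between genes. The array also carries probe sets of soybean pathogens, whose 95th percentile on an array served as its background, and it lay between 5.62 and 6.68 after scaling at the first 3 stages but at 15.98 and 18.6 on the fully grown arrays. The fully grown replicates also differed most, by a median of 0.27 on the log2 scale against 0.12 to 0.13 at the other stages. The signal ratio of the 3' to the 5' actin control probe sets also differed between stages. It was 2.05 and 2.09 in pods, 3.64 and 3.60 at 2 mm, 2.07 and 2.22 at 5 mm, and 2.73 and 4.80 in fully grown beans. Its part in the results was not tested. The summed signal of 6 measured seed coat markers of 7 listed was 1231 to 1449 in elongating pods, 10381 to 12208 at 2 mm, 13243 to 13860 at 5 mm and 8500.5 to 8918 in fully grown beans, where DFR2 and ANR1 were not above background. HPS, a hydrophobic seed protein, made up most of the fully grown sum, with 7285 and 6954 there and 7.06 and 5.15 at 2 mm. Without it the other 5, SCB1, DFR1, ANS2, ANR1 and DFR2, summed to 1080 to 1321 in pods, 10374 to 12203 at 2 mm, 11873 to 11950.1 at 5 mm and 1215 to 1964 in fully grown beans. The sum of these 5 was thus highest in young beans, while HPS was highest in fully grown beans. All 5 carry symbols that were left out of the ranking. The sum of 4 measured embryo markers of 8 listed ran from 4.92 to 7.03 in pods, where all 4 were not above background, through 232 to 352 at 2 mm and 3075 to 4694 at 5 mm, to 31809 to 34019 in fully grown beans. The trypsin inhibitor gene KTI3 and the storage protein gene GY1 carried that last sum, while LEC1-A and WRI1B, embryo regulators, together gave 187 to 275 at 2 mm, 833 to 917 at 5 mm and 297 to 356 in fully grown beans. At 2 mm GY1 was still not above background. None of the 3 endosperm markers was measured. The pod wall and flower markers, 4 of 6 measured, summed to 6628 to 6632 in pods, 289 to 1650 at 2 mm, 587 to 1161 at 5 mm and 2647 to 2689 in fully grown beans. The fully grown sum was mostly KTI-2, at 2079 and 2490, and the other 3 gave 4240 to 4326 in pods and 199 to 567 in fully grown beans. AG1 was not above background at 5 mm or fully grown. Green tissue markers, 4 of 5 measured, summed to 6755 to 6867 in pods, 1937 to 2613 at 2 mm, 3940 to 4532 at 5 mm and 3592 to 4548 in fully grown beans. These markers moved with the stages, and their part in the results was not tested. In tissue samples of this kind, fewer cells of a type and less RNA per cell cannot be told apart.

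The scores of the 40 genes ran from 0.42 to 4.61 with a median of 0.67. Since these values chose the genes, they are given as a description, with no test. Of the 40, 12 scored at least 1 and 9 scored under 0.5. For 39 of the 40, and for 64 of all 719 ranked genes, all 4 young-bean arrays were above all 4 end-stage arrays. The ranking favours this. The exception among the 40 was HAD1, a phosphatase of the haloacid dehalogenase type, whose lowest young-bean signal of 19.9 was below 20.7 on a fully grown array. The nearer end stage was the fully grown bean for 21 genes and the pod for 19, and the lower young stage was 2 mm for 16 and 5 mm for 24. The genes just inside the limit were STP1 at 0.46, SEP1 at 0.44, AT-1SNBP and ACCA-1 both at 0.43, and GASA14 at 0.42. Just outside were ALAAT1, DXR1 and RLK2, all at 0.41, and PAP14 and PDIL-2, both at 0.39. A score above 0 was found for 110 of the 719 ranked genes (15.3%). The score of the last gene taken was reached by 14 of the 234 genes left out by symbol and by 182 of 4861 tested genes that carry only a locus number (3.74%), so the 40 are the named portion of a wider set. Of the 40, 6 are read by a probe set whose suffix marks probes shared among transcripts: GASA14, NMH7, PIB1, PRP1, SAMDC and STP1. A further 6, GASA3, LAX11, IQD40, LAR1, HAD1 and ITPK1, are read by a probe set with an A in its name, counted here as an antisense label. Its part in the results was not tested.

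**Figure D1:**
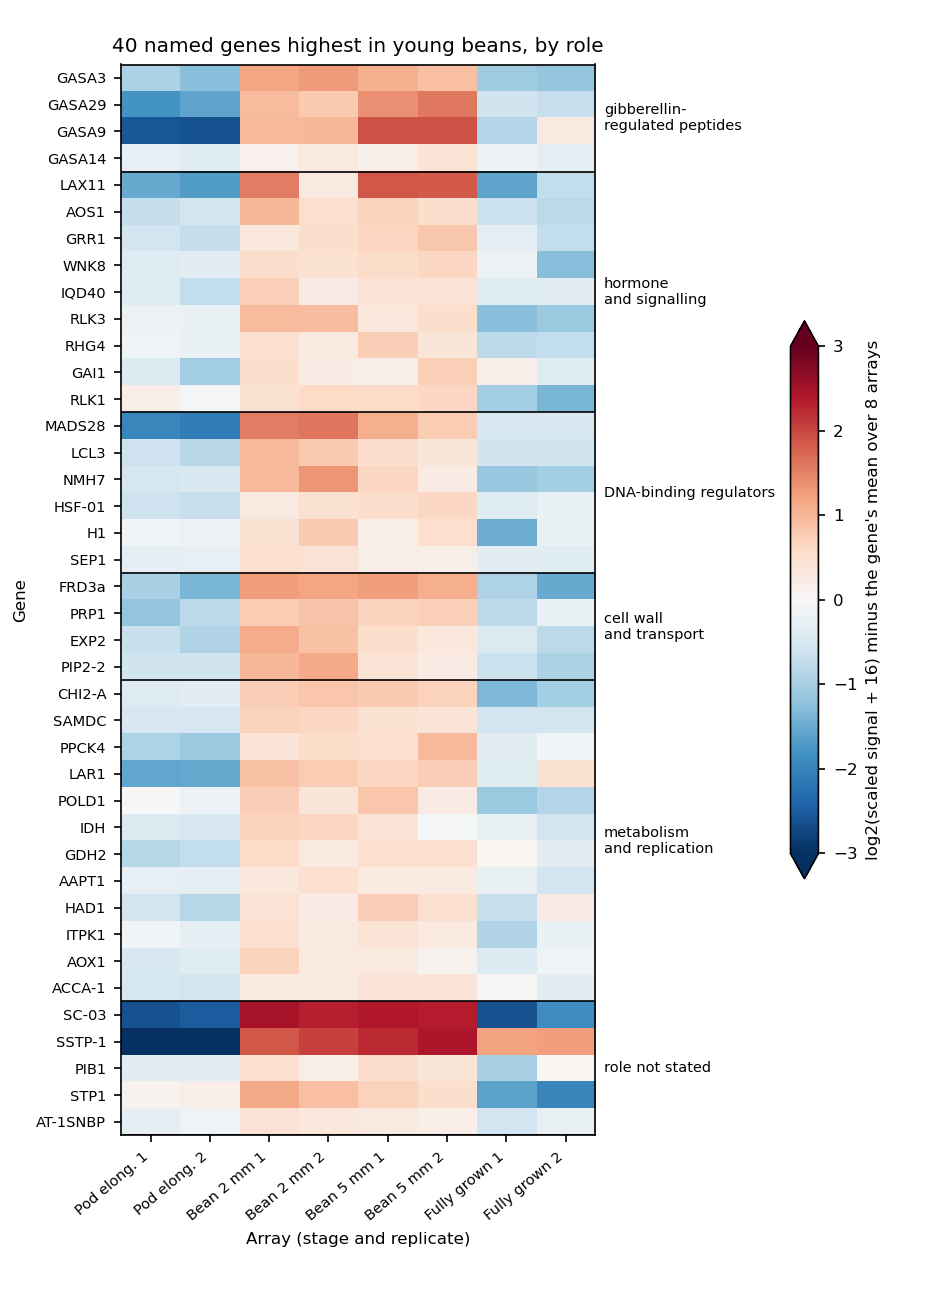
Each row is 1 of the 40 genes, grouped by role, and each column 1 of the 8 arrays; the colour is log2(scaled signal + 16) minus the gene's mean over the 8 arrays, with values beyond 3 drawn in the end colours. The 4 young-bean columns are red or pale red apart from 1 near-white IDH array at 5 mm, and the end-stage columns are mostly blue, with SSTP-1 red in fully grown beans.

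The GASA peptides were the largest named family among the 40, with 4 genes. GASA3 read 264 and 210 in elongating pods, 1192 and 1273 at 2 mm, 1110 and 986 at 5 mm, and 238 and 224 in fully grown beans. Its end stages overlapped, and its young stages lay close together. GASA29 read 54.4 and 64.7 in pods, 453 and 399 at 2 mm, 606 and 709 at 5 mm, and 143 and 134 in fully grown beans. GASA9 read 30.8 and 28.9 in pods, 521 and 527 at 2 mm, 1016 and 1010 at 5 mm, and 133 and 317 in fully grown beans. Both were lowest in pods and highest at 5 mm, with no overlap between any pair of stages, and the fully grown arrays of GASA9 were far apart. GASA14, read by a probe set that may also bind related transcripts, was bright throughout, with 1353 and 1240 in pods, 1753 and 1972 at 2 mm, 1772 and 2128 at 5 mm, and 1442 and 1330 in fully grown beans.

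Among the hormone and signalling genes, LAX11, an auxin influx carrier, read 51.2 and 43.6 in pods, 538 and 217 at 2 mm, 682 and 670 at 5 mm, and 48.4 and 99.5 in fully grown beans. The arrays at 2 mm were far apart. AOS1, an allene oxide synthase of jasmonate synthesis, read 118 and 133 in pods, 419 and 290 at 2 mm, 337 and 301 at 5 mm, and 125 and 109 in fully grown beans. Its end stages overlapped, as did its young stages. GAI1, a DELLA protein, read 76.6 and 43.7 in pods, 161 and 126 at 2 mm, 124 and 185 at 5 mm, and 120 and 78.8 in fully grown beans. One fully grown array came close to the lowest young-bean array of this gene. The F-box protein GRR1, the kinase WNK8 and the calmodulin-binding IQD40 had scores of 0.93, 0.83 and 0.76.

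The receptor-like kinases were lowest in fully grown beans. RLK3 read 462 and 454 in pods, 1026 and 1004 at 2 mm, 649 and 759 at 5 mm, and 209 and 230 in fully grown beans. RLK1 read 356 and 294 in pods, 430 and 477 at 2 mm, 469 and 480 at 5 mm, and 144 and 110 in fully grown beans. RHG4, a leucine-rich repeat receptor-like kinase by its RefSeq synonyms, read 74.7 and 70.7 in pods, 122 and 103 at 2 mm, 149 and 111 at 5 mm, and 41.7 and 43.7 in fully grown beans. For all 3 the pod was the nearer end stage, and RLK1 was only slightly lower there than in young beans.

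Of the DNA-binding regulators, MADS28, a MADS-box gene, read 58.0 and 50.5 in pods, 815 and 853 at 2 mm, 590 and 472 at 5 mm, and 194 and 190 in fully grown beans. It peaked at 2 mm and no stages overlapped. NMH7, a MADS-box gene first described from nodules, read 31.4 and 33.2 in pods, 116 and 154 at 2 mm, 87.7 and 64.8 at 5 mm, and 14.7 and 17.5 in fully grown beans, where neither array was above background. Relative to that background its level was at least 7.78-fold higher at 2 mm, at least 4.38-fold higher at 5 mm and at least 1.87-fold higher in pods, each fold being taken between the geometric means of the bright stage's signals and of the dim stage's background. SEP1, of the SEPALLATA class of MADS-box genes, had a flatter course, with 118 and 121 in pods, 211 and 205 at 2 mm, 168 and 168 at 5 mm, and 114 and 111 in fully grown beans. LCL3, a relative of the clock regulators LHY and CCA1, read 15.5 and 11.5 in pods, 79.8 and 68.3 at 2 mm, 54.0 and 46.9 at 5 mm, and 16.3 and 16.1 in fully grown beans, where 1 array was not above background. HSF-01, a heat shock factor, read 784 and 747 in pods, 1478 and 1695 at 2 mm, 1764 and 1897 at 5 mm, and 955 and 1064 in fully grown beans. The KNOX-type homeodomain gene H1 scored 0.49, and its fully grown arrays, at 2.25 and 27.7, were far apart with 1 below background.

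In the group of cell wall and transport genes, FRD3a, a citrate transporter of the MATE family, read 71.5 and 50.4 in pods, 399 and 377 at 2 mm, 398 and 351 at 5 mm, and 75.5 and 44.7 in fully grown beans. The course was nearly symmetrical, with both end stages and both young stages overlapping. PRP1, a proline-rich wall protein read by a cross-hybridising probe set, gave 114 and 152 in pods, 483 and 514 at 2 mm, 454 and 468 at 5 mm, and 154 and 240 in fully grown beans. EXP2, an expansin, read 113 and 94.4 in pods, 433 and 362 at 2 mm, 279 and 240 at 5 mm, and 136 and 102 in fully grown beans. The plasma membrane aquaporin PIP2-2 read 66.8 and 67.1 in pods, 234 and 259 at 2 mm, 151 and 132 at 5 mm, and 63.8 and 48.9 in fully grown beans. EXP2, on the probe set given here, and PIP2-2 were both higher on each array at 2 mm than on either array at 5 mm.

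The metabolic and replication genes made the largest role group, with 12 of 40, and their scores lay between 0.43 and 1.08. CHI2-A, a chalcone isomerase early in the flavonoid pathway, read 314 and 331 in pods, 705 and 748 at 2 mm, 720 and 679 at 5 mm, and 153 and 195 in fully grown beans. LAR1, leucoanthocyanidin reductase, which makes the catechin units of proanthocyanidins, read 0.62 and 0.96 in pods, where neither array was above background, 74.4 and 66.5 at 2 mm, 58.9 and 65.3 at 5 mm, and 22.0 and 50.7 in fully grown beans. With equal array medians the level of LAR1 was at least 11.6-fold above the pod background at 2 mm and at least 10.2-fold at 5 mm. In fully grown beans it was at least 5.52-fold above that background. These enzymes act in the same pathway but had different low points, the fully grown bean for CHI2-A and the pod for LAR1.

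PPCK4, a kinase that activates phosphoenolpyruvate carboxylase, read 33.6 and 27.7 in pods, 107 and 122 at 2 mm, 116 and 168 at 5 mm, and 59.4 and 73.0 in fully grown beans. POLD1, the catalytic subunit of DNA polymerase delta, read 91.8 and 80.1 in pods, 163 and 124 at 2 mm, 176 and 113 at 5 mm, and 33.9 and 42.7 in fully grown beans. GDH2, a glutamate dehydrogenase, read 90.3 and 100.2 in pods, 278 and 219 at 2 mm, 253 and 258 at 5 mm, and 186 and 137 in fully grown beans. The pod was lowest for PPCK4 and GDH2 and the fully grown bean for POLD1. ACCA-1, an acetyl-CoA carboxylase gene of fatty acid synthesis, read 96.0 and 92.5 in pods, 181 and 178 at 2 mm, 194 and 193 at 5 mm, and 149 and 112 in fully grown beans. SAMDC, a polyamine synthesis enzyme, and IDH, an isocitrate dehydrogenase, scored 0.92 and 0.60. AAPT1 of phospholipid synthesis, the inositol phosphate kinase ITPK1 and the mitochondrial alternative oxidase AOX1 scored 0.55, 0.54 and 0.47. HAD1 scored 0.54, and neither of its pod arrays was above background.

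For 5 of the 40 genes no role is stated. SC-03 had the highest score of all, with 10.5 and 12.9 in pods, 894 and 809 at 2 mm, 850 and 825 at 5 mm, and 10.9 and 29.2 in fully grown beans, where 1 array was not above background. SSTP-1 read 7.46 and 8.50 in pods, 3991 and 4511 at 2 mm, 5172 and 5864 at 5 mm, and 2543 and 2608 in fully grown beans. It thus differed from SC-03 at the later end, where its signal was still high. STP1, read by a cross-hybridising probe set, gave 247 and 268 in pods, 525 and 443 at 2 mm, 381 and 339 at 5 mm, and 64.8 and 46.3 in fully grown beans. PIB1 and AT-1SNBP scored 0.67 and 0.43.

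**Figure D2:**
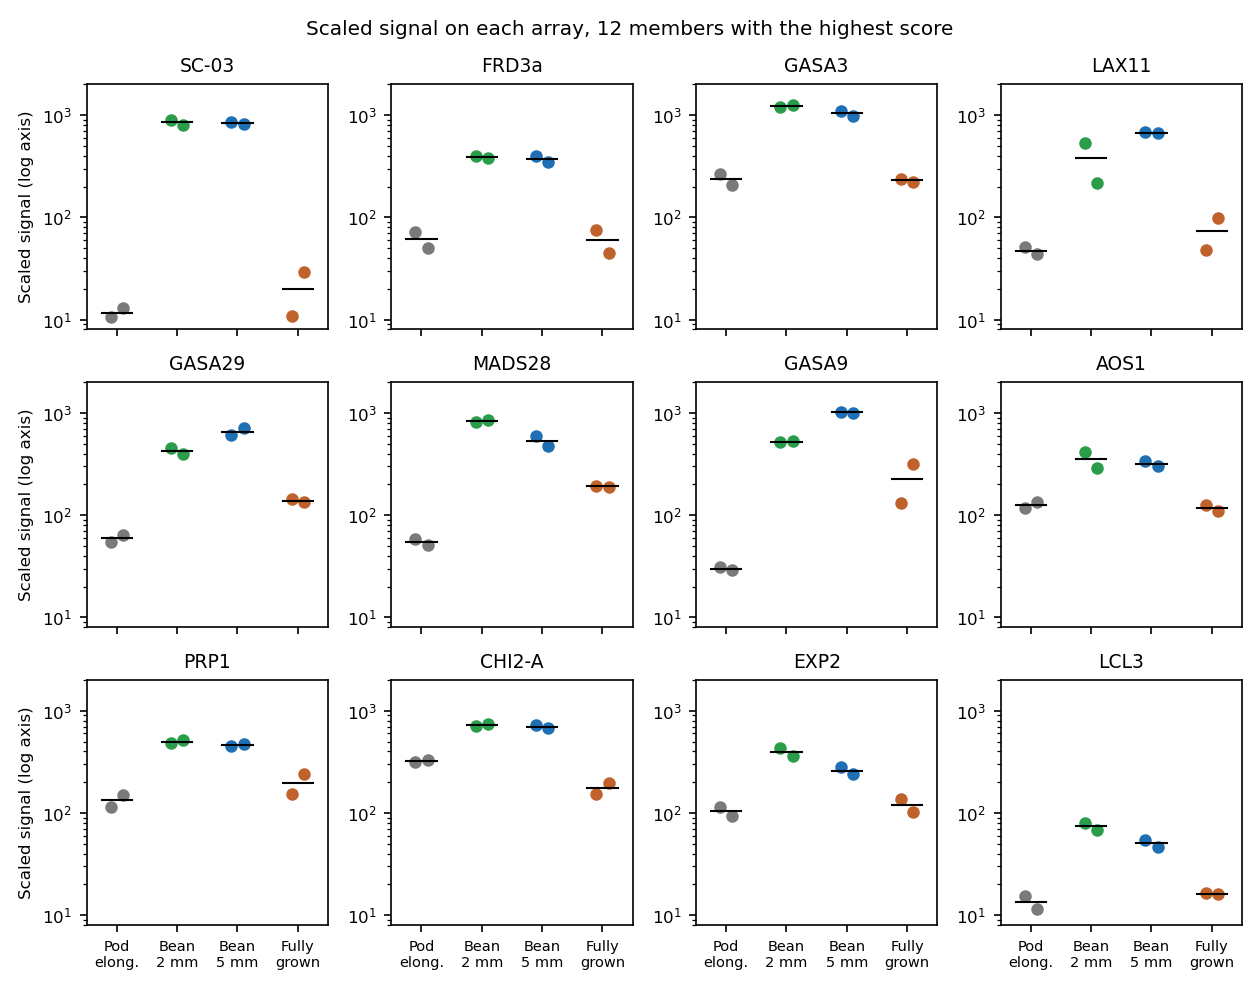
Points are the scaled signals (log axis) of the 2 arrays at each stage for the 12 genes with the highest score, and bars are the means of the 2 arrays. SC-03 is at 809 or more on all 4 young-bean arrays and at 29.2 or less on all 4 end-stage arrays, and the arrays of LAX11 at 2 mm lie far apart.

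The score uses only the lower young stage and the higher end stage, so it leaves free which stage of each pair is higher. These directions were tested with limma (moderated linear models fitted to all 8 arrays), with Benjamini-Hochberg adjustment over 33625 probe sets and a threshold of 0.05. A large change inside a pair lowers the score, so the number of calls among the 40 genes is bounded by how they were chosen. Whether the replicates are separate plants is not said in the labels, so a p-value here measures only how far these samples spread, and that spread may be technical. With 2 arrays a stage, the number of arrays limits the precision.

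Between 2 mm and 5 mm, the step in which pod tissue was left out of the sample, GASA29 rose and 5 genes fell: the MADS-box genes MADS28 and NMH7, the receptor-like kinase RLK3, the aquaporin PIP2-2 and the expansin EXP2. GASA29 was 0.61 ± 0.13 higher on the log2 scale at 5 mm (SE, n = 2 arrays a stage, limma adjusted p = 0.0169). The largest fall was that of PIP2-2, by 0.74 ± 0.14 (limma adjusted p = 0.0110). NMH7 fell by 0.71 ± 0.18 (limma adjusted p = 0.0278), MADS28 fell by 0.64 ± 0.13 (limma adjusted p = 0.0132), EXP2 fell by 0.58 ± 0.17 (limma adjusted p = 0.0412) and RLK3 fell by 0.52 ± 0.12 (limma adjusted p = 0.0181). None of the 6 reached 2-fold, against 2.87% of all tested probe sets that rose and 1.38% that fell by at least this much. For each the arrays of the stages did not overlap. These 6 of 40 genes (15%) stand beside 18.8% of all tested probe sets called in either direction, of which 9.29% were called higher and 9.49% lower. The median change of the 40 was -0.05, and that of all tested probe sets was also -0.05.

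No call of this step was left when bean 2 mm replicate 2 or bean 5 mm replicate 2 was omitted. EXP2, GASA29, MADS28 and RLK3 were lost without bean 2 mm replicate 1, EXP2 and RLK3 without bean 5 mm replicate 1, and EXP2 and NMH7 without either pod array. Without either fully grown array 3 genes were higher and 8 lower. GASA29 alone among these calls turned with the scaling: it was 0.32 lower at 5 mm in the values as deposited, and it was not called with hybridisation control scaling. LAX11 and GASA9, with the largest differences of all, 0.95 ± 0.38 and 0.93 ± 0.30, did not pass (limma adjusted p = 0.113 and 0.059). SSTP-1, at 0.37 ± 0.12, did not pass (limma adjusted p = 0.0577).

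The end stages were compared to see which of the transcripts were lower before the young bean and which after it. Of the 40 genes, 9 were higher in fully grown beans than in elongating pods and 7 were lower, beside 37.3% and 24.9% of all tested probe sets and 62.2% in either direction. The median of the 40 was 0.08 and that of all tested probe sets 0.17. A change of at least 2-fold was found for 5 of the higher and 3 of the lower genes, against 17.1% and 13.7% of all tested probe sets.

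The genes that were higher in fully grown beans were led by SSTP-1, with a difference of 6.76 ± 0.12 (limma adjusted p = 3.23e-09). GASA9 was 2.28 ± 0.30 higher (limma adjusted p = 0.000155) and LAR1, at least 5.52-fold higher as given above, passed with limma adjusted p = 0.000403. MADS28 was 1.57 ± 0.13 higher (limma adjusted p = 1.13e-05) and GASA29 1.03 ± 0.13 higher (limma adjusted p = 0.000152). These 5 include peptides, a regulator and a proanthocyanidin enzyme that stood above their pod level in fully grown beans, and below their young-bean level. PPCK4 was 0.82 ± 0.19 higher, GDH2 0.66 ± 0.17, ACCA-1 0.40 ± 0.14 and HSF-01 0.39 ± 0.12 (limma adjusted p = 0.00426, 0.00738, 0.0323 and 0.0198).

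Among the genes that were lower in fully grown beans, STP1 fell by 1.94 ± 0.16 (limma adjusted p = 7.87e-06), RLK1 fell by 1.26 ± 0.15 (limma adjusted p = 8.88e-05) and RLK3 fell by 1.01 ± 0.12 (limma adjusted p = 7.65e-05). POLD1 fell by 0.91 ± 0.21, CHI2-A fell by 0.84 ± 0.13, and RHG4 fell by 0.60 ± 0.16 (limma adjusted p = 0.00459, 0.000451 and 0.0102). NMH7, not above background in fully grown beans, passed with limma adjusted p = 0.0186. All 3 receptor-like kinases were thus among the 7. Of the genes with no call, FRD3a, GASA3, SEP1 and AOS1 differed between the end stages by -0.03 ± 0.21, -0.02 ± 0.13, -0.08 ± 0.11 and -0.09 ± 0.17. On the brightest probe set of each gene, no change was called in either comparison for 22 of the 40 genes. Over all tested probe sets, 18.8% were called in the first comparison and 62.2% in the second, and the share called in neither is not given. The choice of genes favours such a count, since a large change inside a pair lowers the score. Both comparisons called GASA29, MADS28, NMH7 and RLK3, each in its own pattern: GASA29 rose in both, NMH7 and RLK3 fell in both, and MADS28 fell from 2 mm to 5 mm while standing higher in fully grown beans than in pods.

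The direction of the end-stage comparison depends on how arrays are put on a common scale. The median change over all tested probe sets was 0.17 with equal array medians, 0.09 after quantile normalisation, -0.76 in the values as deposited and -1.52 with arrays scaled to the hybridisation controls. With hybridisation control scaling, 2 of the 40 were higher and 36 lower, with the deposited values 3 and 28, and with quantile normalisation 7 and 11. SSTP-1, GASA9 and LAR1 kept a positive difference under all 4 scalings, though that of GASA9 was 0.17 and not called with hybridisation control scaling. The difference of LAR1 was 0.56 with that scaling and rests on pod values not above background. Its fold bound given above is for equal array medians. All 7 lower genes were lower under all 4. Each of the other scalings had a lower median change than equal array medians, which favours that result. PPCK4, GDH2 and ACCA-1 turned negative both in the deposited values and with hybridisation control scaling. MADS28 was not called in the deposited values, and its difference became -0.61 with hybridisation control scaling. For GASA29 it became -0.18 in the deposited values and -1.07 with hybridisation control scaling. HSF-01 turned to -0.11 after quantile normalisation, -1.03 in the deposited values and -2.12 with hybridisation control scaling. Leaving out pod elongation replicate 1 removed the calls of ACCA-1, GDH2, HSF-01, NMH7 and RHG4, and leaving out pod elongation replicate 2 removed those of ACCA-1, HSF-01 and NMH7. ACCA-1 was also lost without fully grown replicate 1 or any one of the young-bean arrays, and without fully grown replicate 2 the lower genes numbered 11.

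**Figure D3:**
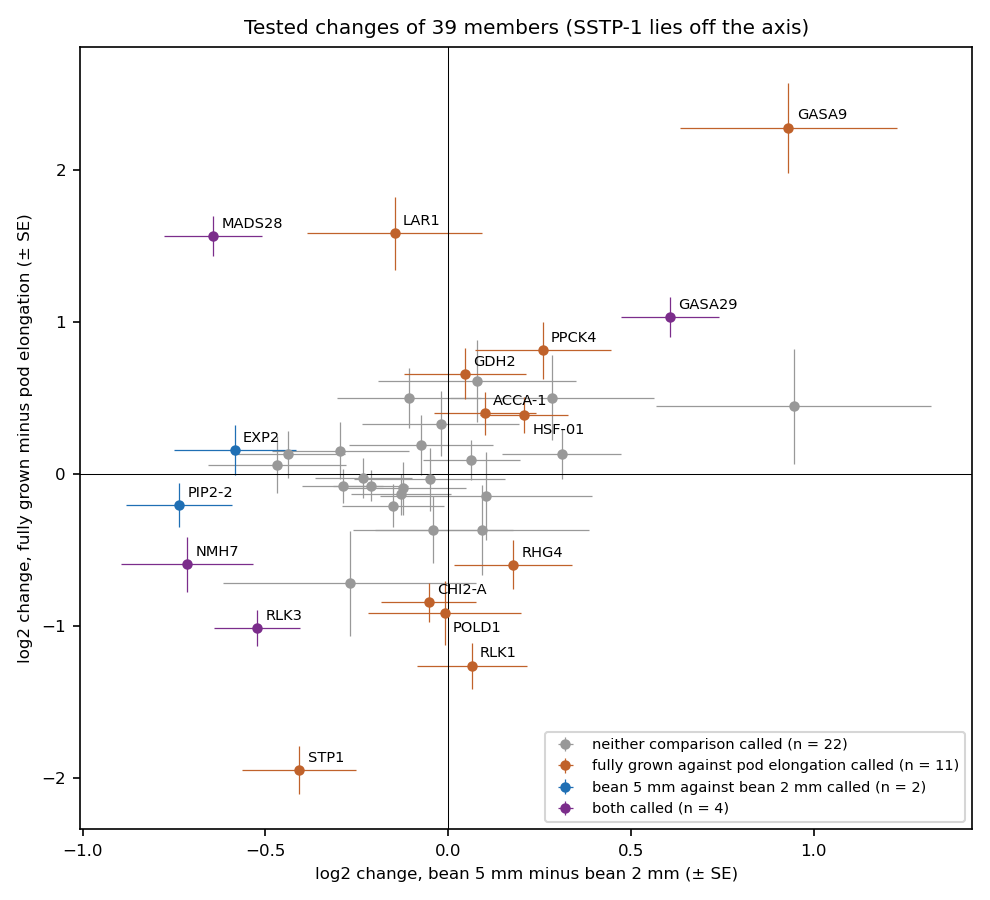
Each point is a gene, with the log2 change from bean 2 mm to bean 5 mm on the horizontal axis and the log2 difference of fully grown beans from elongating pods on the vertical axis; bars are standard errors from limma and colours mark which comparison passed an adjusted p of 0.05. SSTP-1, at 0.37 and 6.76, is not drawn, and MADS28 and GASA9 stand at the upper left and upper right.

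The score that chose the genes kept its sign under the scalings, which is a description and no test. All 40 scores were above 0 with equal medians, quantile normalisation, deposited values and hybridisation control scaling, with lowest values of 0.42, 0.37, 0.24 and 0.19. In the same order, 110, 138, 218 and 209 of the 719 ranked genes scored above 0. The make-up of the top 40 was less stable: 32 of the 40 were found again after quantile normalisation and 19 with either of the other scalings. SC-03 led under each of the 4, with scores between 4.61 and 5.07. SSTP-1 ranged from 0.72 to 3.18.

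**Figure D4:**
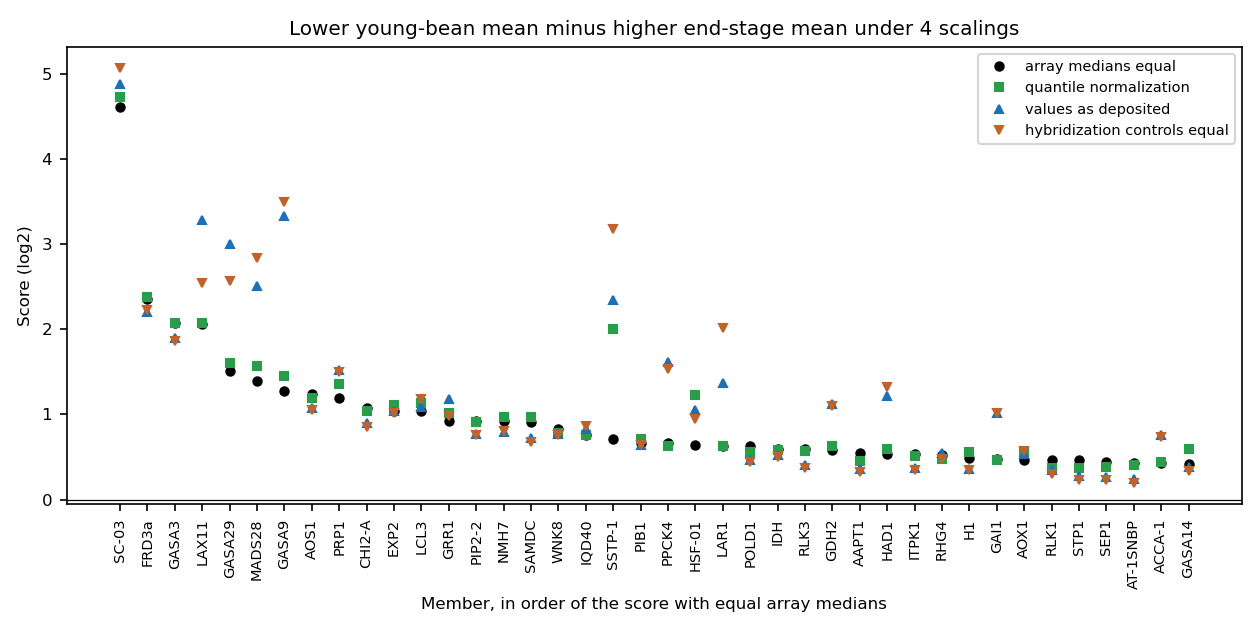
The score of each of the 40 genes (lower young-bean mean minus higher end-stage mean, log2 scale) is drawn under 4 scalings of the arrays. No symbol lies below 0, and SSTP-1, GASA9, GASA29, MADS28 and LAR1 are the genes whose symbols are spread furthest.

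Several genes are read by more than 1 probe set, which gives a view of the young-bean pattern on probes the ranking did not use. For 14 of the 40 genes there were 19 other tested probe sets, of which 11 scored above 0 and 8 did not. They share the RNA and arrays with the chosen sets, and their scores are descriptive. Other sets of EXP2 scored 0.47 and 1.04, those of GASA14 1.34 and 0.28, those of NMH7 0.45 and 0.62, and those of AT-1SNBP 0.21 and 0.35. RHG4, ITPK1 and GDH2 had another set at 0.46, 0.35 and 0.09. The tested changes of other sets did not always match. Both other AT-1SNBP sets were called lower in fully grown beans than in pods, with log2 changes of -1.49 and -0.74 (limma adjusted p = 4.2e-06 and 0.00028). The chosen set was not called. The other GDH2 set was called 0.75 higher at 5 mm than at 2 mm (limma adjusted p = 0.031), unlike the chosen set. That of RHG4 was called lower in fully grown beans, as was the chosen set.

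Among the 14 genes, 7 had a set that did not share the pattern. GRR1 had a set at -2.81, which was brightest in fully grown beans at 120 and 566, and HSF-01 had one at -1.17, which was brightest in pods at 106 and 102. A dim second set of SSTP-1 scored -0.10, and unlike the bright set it read 49.7 and 55.1 in pods. AOS1 had sets at -0.00 and -0.76, the latter not above background at 2 mm or 5 mm. The former was called lower in fully grown beans than in pods, with a log2 change of -0.86 (limma adjusted p = 0.0011), unlike the chosen set. The other HSF-01 set was also called lower there, at -1.11 (limma adjusted p = 0.0146), against the call of the chosen set. GAI1, IDH and STP1 had one at -0.33, -0.16 and -0.44. Against the fall of the brightest EXP2 set from 2 mm to 5 mm, its other sets were 0.48 and 0.40 higher at 5 mm. Neither was called (limma adjusted p = 0.167 and 0.267). When all probe sets of a gene were averaged, EXP2 turned to 0.10 in the step from 2 mm to 5 mm, and the scores of GRR1 and HSF-01 were no longer above 0. Statements on all genes with more than 1 probe set, AT-1SNBP and GDH2 included, therefore hold for the brightest set of each.

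The other genes of the families and pathways, found by symbol, show how much of each followed the young-bean course. Their counts below are with equal array medians. In each list counted here, falls outnumbered rises from 2 mm to 5 mm in the values as deposited, where the median of all tested probe sets was -0.76, and between the end stages with hybridisation control scaling. Of 16 GASA genes measured, only the 4 described above scored above 0. The other 12 ran in both directions between the end stages, with 6 higher in fully grown beans and 5 lower, and GASA24 was not called. GASA12 was at least 1206-fold higher than the background it did not exceed in pods, and GASA22, GASA4 and GASA27 were 5.76, 5.33 and 3.34 higher on the log2 scale (limma). GASA6 and GASA21 fell by 3.89 and 1.87, and GASA33 and GASA11, not above background in fully grown beans, were at least 41.5-fold and at least 20.4-fold higher in pods. Those 8 kept their direction under all 4 scalings, while GASA13 and GASA32, at 1.64 and 0.58, turned negative with hybridisation control scaling. Between 2 mm and 5 mm, 3 of the other 12 rose and 1 fell, led by GASA12 at 2.42 and GASA4 at 2.31, with GASA6 falling by 1.74. On the scaled signals GASA27 and GASA22 were thus highest in fully grown beans, GASA33, GASA11 and GASA6 were highest in pods, and GASA3, GASA29, GASA9 and GASA14 were highest in between.

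**Figure D5:**
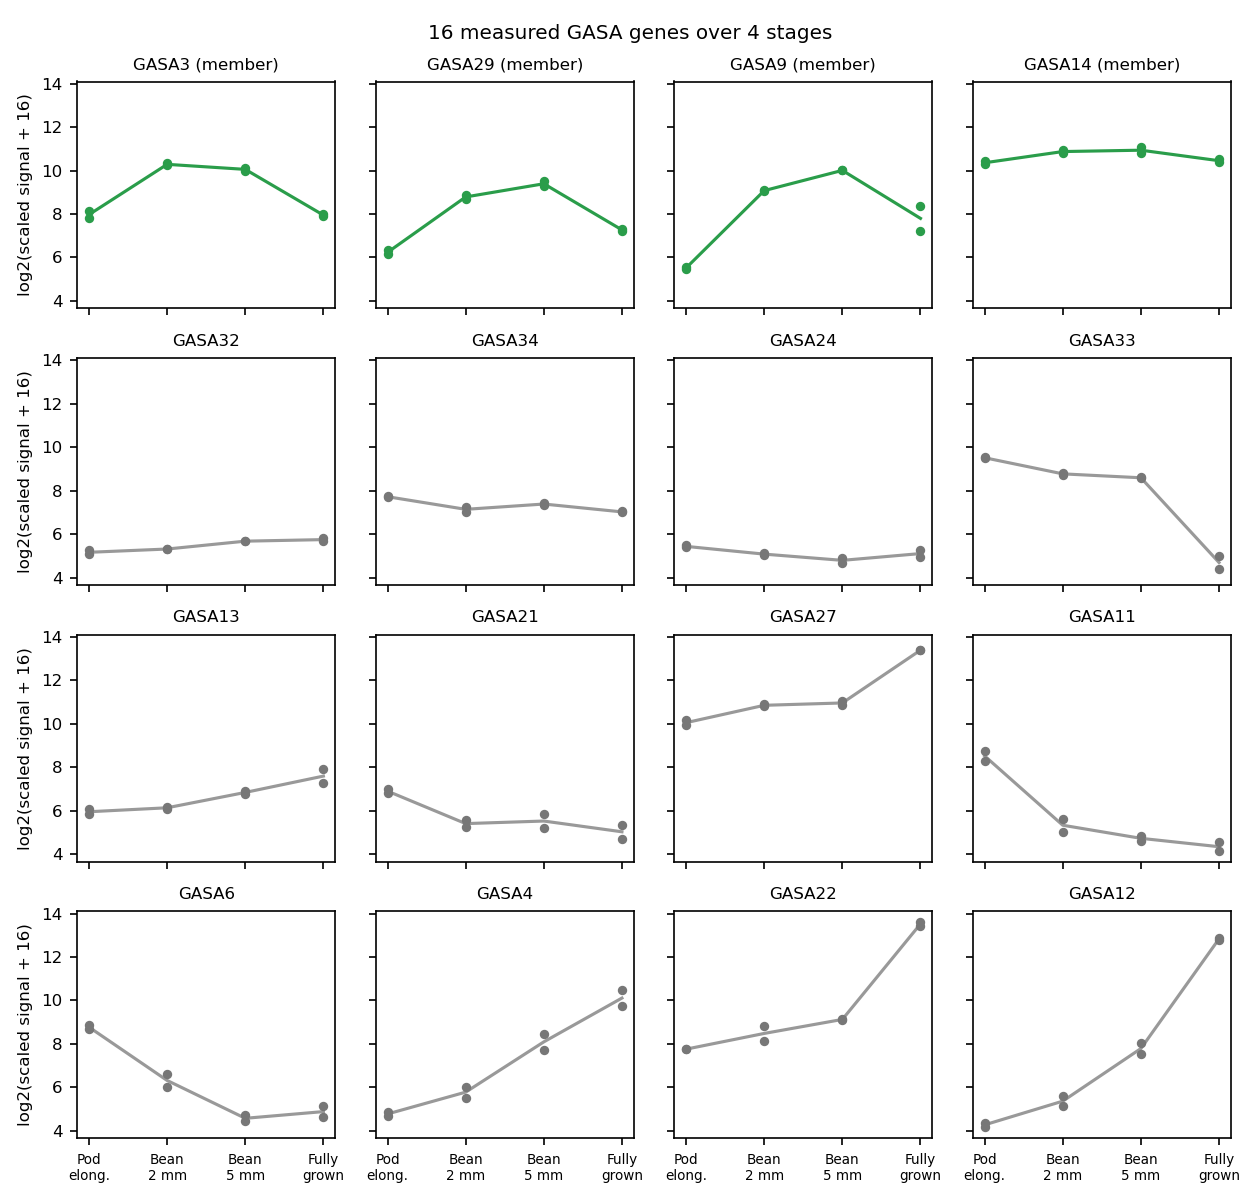
Each panel is 1 of the 16 measured GASA genes, with stage on the horizontal axis and log2(scaled signal + 16) on the vertical axis; points are single arrays and lines join stage means. The 4 genes of the young-bean set, in green, are highest at 2 mm or 5 mm, while GASA12, GASA22, GASA4 and GASA27 are highest in fully grown beans and GASA33, GASA11 and GASA6 in pods.

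Of the 4 other measured MADS-box genes, 3 were lower in fully grown beans than in pods: AP1A fell by 2.81 and AGL3L fell by 2.16 (limma), and AG1, not above background in fully grown beans, was at least 6-fold higher in pods. All 3 were also lower under the other scalings, which the lower median changes of those scalings favour. AGL1L was 1.62 higher, but 0.90 lower with hybridisation control scaling, and it was the only one of the 4 called from 2 mm to 5 mm, with a fall of 0.39. HDL57, 1 of 2 other homeodomain genes, fell by 0.62 from 2 mm to 5 mm and by 0.90 between the end stages. Among 8 other auxin genes, AUX22, of the Aux/IAA repressors, fell by 1.99 from 2 mm to 5 mm and was 2.54 lower in fully grown beans than in pods, while ADR11 rose by 1.02 in the first of these. In all, 4 of the 8 were higher at the later end stage and 3 lower, with ARF, a symbol that ADP-ribosylation factors also carry, 2.68 higher and PIN2A, an auxin efflux carrier, at least 3.54-fold higher than its pod background. Hybridisation control scaling left 0 higher and 6 lower. Of 4 other gibberellin genes, the DELLA gene GAI2 and the biosynthetic GA20OX3 were 1.34 and 0.52 higher in fully grown beans, and both were lower with hybridisation control scaling, GA20OX3 also in the deposited values.

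Cell wall genes other than EXP2 and PRP1 were lower in fully grown beans than in pods in 8 of 12 cases and higher in 2, beside 24.9% and 37.3% of all tested probe sets, and 11 and 0 with hybridisation control scaling. The 12 include ENOD40B, an early nodulin gene. The wall-remodelling gene XTH1 fell by 3.66 and SBPRP fell by 3.65, while PRP2 was 2.64 higher (limma). XET1, above background in pods alone, was at least 9.04-fold higher there than in fully grown beans. XTH1 also fell from 2 mm to 5 mm, by 1.38, and PG7 fell by 0.70 there. Of 13 other plasma membrane aquaporins, 6 were higher and 4 lower between the end stages, led by PIP1-1 and PIP2-4, which fell by 3.58 and 3.57, and PIP2-8, which was 2.00 higher. After quantile normalisation the counts were 4 and 7, and with hybridisation control scaling all 13 were lower. From 2 mm to 5 mm, where PIP2-2 fell, PIP1-4 and PIP1-10 rose by 0.95 and 0.88, and PIP2-10 fell by 0.73.

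Of 33 other phenylpropanoid and flavonoid genes, 12 were higher and 14 lower in fully grown beans than in pods, and 3 and 27 with hybridisation control scaling. The isoflavone synthase genes IFS1 and IFS2 were 5.09 and 3.60 higher (limma), and IFR1, an isoflavone reductase, was at least 99.4-fold higher than its pod background. CHS1, of the first committed step, was at least 9.49-fold higher in pods than in fully grown beans. From 2 mm to 5 mm, 7 rose and 2 fell, with CHI3A1 1.29 and IFS1 1.04 higher and HIDH lower by a log2 change of -1.14. Neither CHI2-A nor LAR1 was called in that step, at -0.05 ± 0.13 and -0.15 ± 0.24. In the list of fatty acid genes that holds ACCA-1, 7 of 21 others rose from 2 mm to 5 mm and 0 fell, and 11 were higher and 9 lower between the end stages. These 21 include the phosphoenolpyruvate carboxylases PEPC4, PEPC7, PEPC16 and PEPC17 and the regulator WRI1B, so the counts are not of fatty acid enzymes alone. The seed desaturase FAD2-1A led with a rise of 4.34 from 2 mm to 5 mm and a level in fully grown beans at least 1758-fold above its pod background, followed by SACPD-C with 1.67 and 4.54 (limma). Quantile normalisation gave 1 fall in the first of these steps, and the deposited values 3 rises and 11 falls.

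RLK2, which lies just outside the limit of the ranking, resembled RLK3 in both tested steps: it fell by 0.74 from 2 mm to 5 mm and by 1.77 between the end stages. The list that holds the RLK genes has 9 calcium sensor and kinase genes besides RLK1 and RLK3, and RLK2 is 1 of them. Of these 9, 1 rose and 2 fell in the first comparison. In the second, 2 were higher and 4 lower, and there LRK1 fell by 3.60 and MAPKK2 by a log2 change of -1.33. Of 9 other heat shock factors, 5 were higher and 0 lower in fully grown beans, but 0 and 8 with hybridisation control scaling, and HSF-08 rose by 1.11 from 2 mm to 5 mm. SC-04, the other measured gene with the SC symbol, was 3.92 higher in fully grown beans than in pods, whereas the difference of SC-03 there, 0.33 ± 0.21, did not pass (limma adjusted p = 0.204). PPCK2, another kinase of the PPCK4 family, rose by 1.53 from 2 mm to 5 mm and was 4.21 higher between the end stages.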

How the data were processed

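The deposited values are linear signal intensities, 1 for each probe set and array, in a table of 61170 probe sets. The submitters' processing notes name MAS5 for the bean 5 mm and fully grown samples. For the remaining samples no program was found in those notes, nor was a scaling target for any. Per the labels' protocols, total RNA was turned into biotinylated cRNA.

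Background was the 95th percentile of an array's pathogen probe sets, and the 33625 of 37641 soybean probe sets that passed it on at least 2 of 8 arrays were tested. Linear scaling gave each array the same median over them. Analyses used log2(scaled signal + 16), so fold changes of dim transcripts are understated. Folds against a stage with no array above that percentile are lower bounds on signals scaled to equal medians. They do not bound the folds under other scalings. Group means of all 8 arrays were fitted with limma 3.58.1 in R 4.3.3 (eBayes with trend, two-sided contrasts), and the fit was tested on simulated data. The labels do not say that replicate numbers pair the samples, so no pairing was fitted. The correlations of same-numbered deviations between stages lay between -0.05 and 0.10, which cannot exclude a pairing.

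The platform annotation lists 9047 probe sets, 8677 with 1 gene and 370 with several, which name no gene here. Of the former, 8652 matched RefSeq (Glycine_max_v4.0, used only for names). The brightest set, by highest mean, stands for a gene. Symbols beginning with bZIP were left out in either case of the letters. All 40 genes are named, with arrays given for the highest scores, the largest called changes and members of each role group, and up to 4 other genes for each gene list. The genes and lists were chosen with earlier results of these data known, role groups and families were formed once the genes were known, and equal medians were also chosen in an earlier analysis that had seen the values. Gene lists use symbols alone, are incomplete and hold some genes by accident of their symbols, so plasma membrane aquaporins and heat shock factors were counted instead of the wider lists. No sequences or coordinates are given.

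Alternatives covered the scaling, the set behind the median, the pseudocount, the filter, a replicate block, the arrays fitted, the probe sets standing for a gene, a 2-fold limit and each array left out. The ranking without the filter was added after seeing the data.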

Additional observations from a re-analysis of the deposited data

How the results depend on the processing

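With a replicate block, 1 of the 40 genes was higher and 5 lower at 5 mm than at 2 mm, and 10 were higher and 7 lower in fully grown beans than in pods, against 1, 5, 9 and 7 without it. The labels do not say whether the replicate numbers pair the samples. Members higher at 5 mm numbered 0 with the values as deposited and 2 with quantile normalisation, with a pseudocount of 64 and with the 4 arrays of the comparison alone, and members lower there numbered 36 with the deposited values. The 2-fold limit left 0 and 0 at that step, and 5 and 3 between the end stages. Members higher in fully grown beans numbered 3 with the deposited values and 2 with hybridisation control scaling, and members lower numbered 28, 36 and, after quantile normalisation, 11. Leaving out 1 array at a time gave 0 to 3 higher and 0 to 8 lower at 5 mm, and 7 to 11 higher and 5 to 11 lower in fully grown beans. Of the top 40, 19 were found again with the deposited values and with hybridisation control scaling, 32 to 40 under the other settings, the ranking without a filter giving 40, and 33 to 39 with 1 array left out.

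Single calls of the step from 2 mm to 5 mm were lost for EXP2 with a pseudocount of 1, for NMH7 with plain probe sets and for GASA29 with hybridisation control scaling. Between the end stages calls were lost for ACCA-1 and HSF-01 with the 4 arrays of the comparison alone, for ACCA-1 after quantile normalisation, for GDH2 and NMH7 with the mean over probe sets, for NMH7 with a pseudocount of 64, for MADS28 with the deposited values and for GASA9 with hybridisation control scaling.

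Directions turned mostly with the scaling. With the deposited values the change from 2 mm to 5 mm became -0.80 for ACCA-1, -0.81 for GAI1, -0.89 for GASA14, -0.32 for GASA29, -0.87 for GDH2, -0.63 for GRR1, -0.74 for HSF-01, -0.72 for PIB1, -0.61 for PPCK4, -0.69 for RHG4, -0.87 for RLK1, -0.58 for SSTP-1, -0.79 for WNK8, -0.35 for HAD1 and -0.0053 for GASA9, beside a median over all tested probe sets of -0.76. Between the end stages the deposited values gave -0.82 for ACCA-1, -1.04 for EXP2, -1.33 for GASA14, -0.18 for GASA29, -0.59 for GDH2, -1.22 for GRR1, -1.03 for HSF-01, -0.92 for IDH, -0.65 for IQD40, -0.23 for PPCK4, -0.79 for PRP1, -0.30 for SC-03, -0.63 for LAX11, -0.53 for GAI1, -0.46 for LCL3 and -0.49 for AOX1. Hybridisation control scaling, under which that median was -1.52, gave -1.72 for ACCA-1, -0.96 for AOX1, -1.94 for EXP2, -1.37 for GAI1, -2.43 for GASA14, -1.07 for GASA29, -1.52 for GDH2, -2.24 for GRR1, -2.12 for HSF-01, -1.64 for IDH, -1.26 for IQD40, -1.41 for LAX11, -0.90 for LCL3, -0.61 for MADS28, -0.96 for PPCK4, -1.75 for PRP1, -0.74 for SC-03 and -0.11 for HAD1. From 2 mm to 5 mm it gave -0.036 for ACCA-1, -0.058 for GAI1, -0.083 for GASA14, -0.096 for GDH2, -0.021 for PIB1, -0.078 for RLK1 and -0.041 for WNK8. Quantile normalisation gave -0.59 for GASA14, -0.11 for HSF-01 and -0.17 for GRR1 between the end stages, and -0.10 for GASA14 and 0.029 for POLD1 from 2 mm to 5 mm. The mean over all probe sets gave 0.10 for EXP2, 0.074 for AOS1, 0.067 for IDH, -0.31 for GRR1 and -0.18 for RHG4 from 2 mm to 5 mm, and -0.36 for HSF-01, -0.021 for EXP2 and -0.016 for IDH between the end stages. There, plain probe sets gave 0.40 for NMH7 and -0.21 for GASA14, and the median over all soybean probe sets gave 0.0042 for FRD3a and 0.019 for GASA3. Leaving out 1 array at a time turned only changes that had not been called, with ranges of -0.38 to 0.13 for AOS1, -0.14 to 0.036 for FRD3a, -0.18 to 0.34 for GAI1, -0.068 to 0.19 for GASA14, -0.12 to 0.21 for GDH2, -0.31 to 0.16 for IQD40, -0.16 to 0.076 for ITPK1, -0.059 to 0.27 for PIB1, -0.30 to 0.28 for POLD1, -0.015 to 0.37 for RHG4, -0.0080 to 0.14 for RLK1 and -0.092 to 0.050 for SC-03 from 2 mm to 5 mm, and -0.31 to 0.042 for AAPT1, -0.023 to 0.34 for EXP2, -0.33 to 0.26 for FRD3a, -0.18 to 0.13 for GASA3, -0.094 to 0.36 for GRR1, -0.11 to 0.24 for IDH, -0.65 to 0.37 for PIB1, -0.040 to 0.71 for SC-03 and -0.93 to 0.20 for WNK8 between the end stages. Which scaling is nearer to the amounts of transcript, and the cause of these shifts, was not tested.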
